A study of Drosophila melanogaster with 11 samples.

Results

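The transcriptome of intestinal stem cells expressing a *spen* RNAi construct (SPEN-ISC) was compared with that of wild-type intestinal stem cells (WT-ISC) in the adult midgut of *Drosophila melanogaster*. The comparison was defined by the group labels alone and used 6 of the 11 libraries, 3 of SPEN-ISC and 3 of WT-ISC. All flies were 5-day-old females that carried esg>GAL4, tubGAL80.ts and the reporters UAS-RFP and nre-GFP. The SPEN-ISC flies carried UAS-spen RNAi in addition, and the labels give the WT-ISC flies no control hairpin. Effects of lower *spen*, of the construct itself and of the genetic background can therefore not be told apart. A shift from 18 to 29°C for 2 days induced the system in both groups, so that both had the same heat treatment. Midguts were dissociated, and diploid cells with RFP but without the Notch reporter GFP were sorted as ISCs. The *esg* driver is active in ISCs and in their daughters, the enteroblasts (EBs), so *spen* RNAi was on in both cell types, and the 5 EB libraries (2 WT-EB and 3 SPEN-EB) are used only where stated.

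Spen is a very large nuclear protein with RNA recognition motifs and a SPOC domain, and its relatives act in transcriptional repression, in Notch signalling and in the machinery that places m6A on mRNA. In the midgut, an ISC divides to renew itself and to give an EB, in which Notch signalling from the ligand Delta leads to the enterocyte fate. ISCs also give rise to the hormone-secreting enteroendocrine cells. Because *spen* encodes a regulator of RNA, the comparison was made at the level of genes and at the level of exon bins, the smallest pieces into which the annotated exons of a gene can be divided.

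Each library held between 28206027 and 30971075 counts over exon bins, and between 5106 and 6838 genes reached 1 FPKM (fragments per kilobase of transcript, scaled to library size). The 50 most abundant genes took 53.6 to 65.7% of the FPKM of a library. The libraries of both groups varied along the same axis. The share of counts in genes with at least 3000 exonic bases was 1.61, 5.81 and 3.47% in WT-ISC and 3.68, 2.75 and 7.36% in SPEN-ISC. The first principal component held 50.2% of the variance and had WT-ISC replicate 1, with the lowest share, at one end and SPEN-ISC replicate 3, with the highest, at the other. The progenitor gene *esg* followed it, at 4.89, 100.03 and 20.1 FPKM in WT-ISC and 13.8, 6.41 and 85.8 in SPEN-ISC. The counts of calls and the values of the gene lists are therefore also given without those 2 libraries. The shares left were 5.81 and 3.47% in WT-ISC and 3.68 and 2.75% in SPEN-ISC, with 2 libraries per group. Over all 6 libraries the mean share was higher in SPEN-ISC (4.59 against 3.63%), and in the smaller fit it was higher in WT-ISC. The smaller fit thus turns the difference along the axis around and does not remove it. This alternative was added after the data were seen, and the part of the axis in single results was otherwise not tested.

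The targeted gene *spen* was listed at 0.255, 0.620 and 0.327 FPKM in WT-ISC and at 2.17, 1.61 and 5.04 in SPEN-ISC. It was higher in all 3 SPEN-ISC libraries than in any WT-ISC library, with a log2 fold change of 1.68 (SE 0.45). It did not pass the threshold over all genes in limma (adjusted p = 0.346) or in edgeR (adjusted p = 0.0985), but did in DESeq2 (adjusted p = 1.69e-05). The excess lay in the exon bin E014, a single exon of 12094 bases on chromosome 2L from 187482 to 199575 (BDGP5) that all 8 annotated transcripts share and that is coding sequence in the 7 of them that could be matched to an annotation. Its counts were 6, 101 and 39 in WT-ISC and 1088, 613 and 2160 in SPEN-ISC. The bin took 4.44, 31.3 and 23.4% of the counts of *spen* in WT-ISC and 88.4, 73.7 and 80.9% in SPEN-ISC. The groups did not overlap, and an exact two-sided permutation test over the 6 libraries gave p = 0.1, the smallest that 3 against 3 can give. In the ratio test over all bins the adjusted p of E014 was 0.769.

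Outside E014, *spen* had 129, 222 and 128 counts in WT-ISC and 143, 219 and 509 in SPEN-ISC. These counts overlapped between the groups (exact permutation p = 0.3). Downstream of E014 the counts were 16, 116 and 52 in WT-ISC and 48, 102 and 260 in SPEN-ISC (exact permutation p = 0.5). A lower level of *spen* RNA was thus not seen outside E014 in SPEN-ISC. The highest counts were those of SPEN-ISC replicate 3, the library with the highest share of counts in long genes. Whether that share hides a lower level of this long gene was not tested. The groups are named throughout as the labels name them. Per the study, the double-stranded RNA made from the construct matches part of this exon. Counts of the gene and counts of the construct in E014 cannot be told apart in the deposited table, so E014 is no measure of the level of the gene. The same bin had 7 and 12 counts in WT-EB and 720, 393 and 406 in SPEN-EB.

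**Figure D1:**
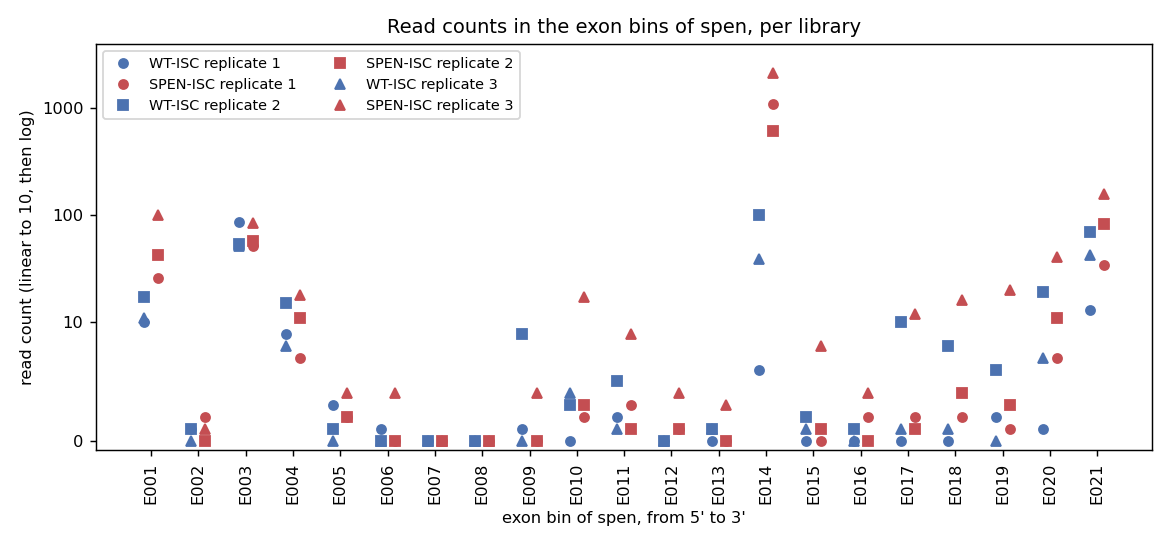
Read counts (y axis, linear up to 10 and logarithmic above) of each of the 21 exon bins of *spen*, ordered from 5′ to 3′ on the x axis. Each point is 1 library, blue for WT-ISC and red for SPEN-ISC, with a shape for each replicate. The groups separate widely in E014, at 6 to 101 against 613 to 2160 counts, and lie close together in most other bins.

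Few genes separated the groups beyond the spread of their libraries. Of 6371 genes with at least 1 FPKM in 3 libraries, 7 (0.11%) passed an adjusted p under 0.05 in limma, 2 (0.0314%) higher and 5 (0.0785%) lower in SPEN-ISC. An unadjusted p under 0.05 was reached by 214 genes (3.36%), of which 112 (1.76%) were higher and 102 (1.6%) lower. For 509 genes (7.99%) the FPKM of the groups did not overlap, with SPEN-ISC above in 378 (5.93%) and below in 131 (2.06%). Overlap was judged on FPKM as deposited, before scaling. Without scaling, 163 genes were higher and 60 lower at an unadjusted p under 0.05 in limma. Full separation of 3 against 3 libraries has an exact permutation p of 0.1, so lack of overlap alone is weak evidence for a gene. The log2 fold change of all tested genes had a median of 0.05 after scaling of the libraries and of 0.26 without it.

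The number of calls depended on the model and on single libraries. DESeq2 on the counts summed over the bins of a gene called 54 of 8150 genes (0.663%), 24 (0.294%) higher and 30 (0.368%) lower, and all 7 genes were among them. edgeR called 0 of the same 8150, with 278 (3.41%) at an unadjusted p under 0.05, and all 7 genes among these. voom called 10 of the 8150 (0.123%), and only 5 of the 7 genes were among them. *CG33774* and *CG11190* missed the threshold in voom (adjusted p = 0.331 and 0.091). Without SPEN-ISC replicate 1 the limma count was 1, and without SPEN-ISC replicate 3 it was 40. Without both libraries at the ends of the long-gene axis it was 82 (1.27%), with 59 (0.916%) higher and 23 (0.357%) lower of 6441 genes and with all 7 genes kept. In that fit 514 genes (7.98%) had an unadjusted p under 0.05, of which 301 (4.67%) were higher and 213 (3.31%) lower.

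**Figure D2:**
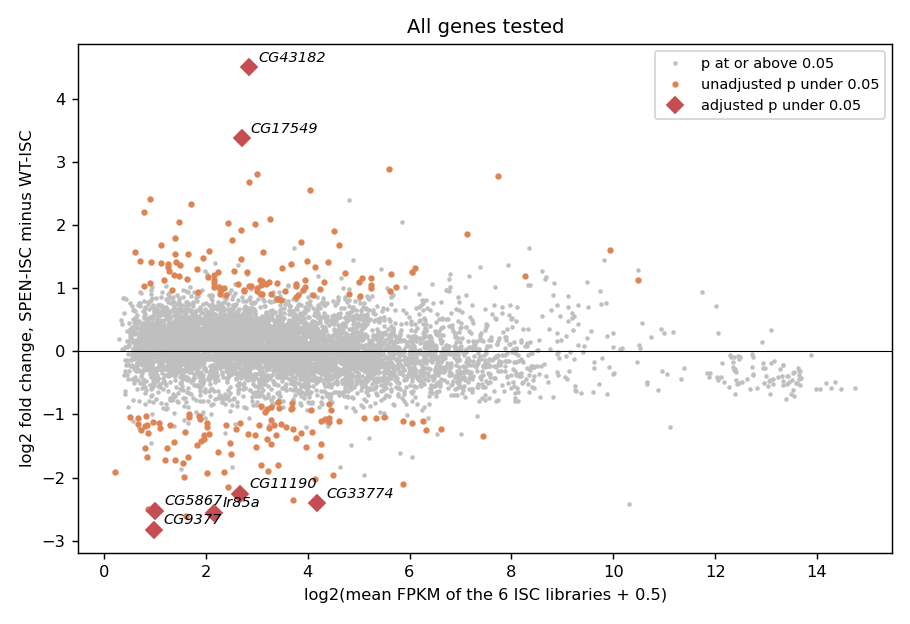
Change in SPEN-ISC relative to WT-ISC on a log2 scale (y axis) against the mean FPKM of the 6 libraries on a log2 scale (x axis) for each of the 6371 genes tested. Orange points have an unadjusted p under 0.05, and the red diamonds are the 7 genes with an adjusted p under 0.05, 2 above 0 and 5 below.

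*CG43182* was the gene with the smallest p. It is a gene with 1 exon bin of unknown role on chromosome X from 247100 to 247350 (BDGP5, plus strand). It was listed at 0 FPKM in every WT-ISC library and at 6.71, 23.8 and 9.81 in SPEN-ISC, with 39, 129 and 54 counts. Against a floor of 3 counts over the WT-ISC group, it was at least 74.1-fold higher in SPEN-ISC (limma, adjusted p = 0.00286). It overlaps *CG32816* on the opposite strand.

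*CG17549*, a gene without an assigned role, lies on chromosome 2L from 19387050 to 19390070. It was at 0.794, 0.307 and 0.381 FPKM in WT-ISC and at 14.2, 8.61 and 11.8 in SPEN-ISC. The lowest SPEN-ISC library was therefore well above the highest WT-ISC library, and the log2 fold change was 3.37 (SE 0.46, adjusted p = 0.00444 in limma). Its summed counts were 26, 11 and 18 in WT-ISC and 495, 279 and 388 in SPEN-ISC.

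Both genes of protein modification in the endoplasmic reticulum that passed were lower in SPEN-ISC. *CG33774* encodes a small subunit of the oligosaccharyltransferase, which attaches N-glycans to nascent proteins, and lies on chromosome 2R from 5287258 to 5287809. It was at 29.2, 25.5 and 33.5 FPKM in WT-ISC and at 6.52, 6.49 and 5.28 in SPEN-ISC. All SPEN-ISC libraries lay far below the lowest WT-ISC library, with a log2 fold change of -2.40 (SE 0.42, adjusted p = 0.0345 in limma). It overlaps *l(2)k10201* on the opposite strand. *CG11190* (*PIG-T* in later annotations) encodes a subunit of the GPI transamidase, which attaches glycolipid anchors to proteins, and lies on chromosome X from 8298568 to 8301296. It was at 7.22, 11.6 and 10.4 FPKM in WT-ISC and at 3.10, 1.36 and 1.68 in SPEN-ISC, again without overlap. Its log2 fold change was -2.26 (SE 0.41, adjusted p = 0.0371 in limma).

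*Ir85a* encodes a member of the ionotropic receptor family, known from chemosensation, and lies on chromosome 3R from 4620406 to 4622367. It was at 5.58, 8.03 and 7.15 FPKM in WT-ISC and at 0.903, 0.661 and 1.33 in SPEN-ISC. The groups did not overlap, and the log2 fold change was -2.55 (SE 0.42, adjusted p = 0.0236 in limma). *CG5867* (*Jhbp14*) belongs to the family of juvenile hormone binding proteins and lies on chromosome 2L from 13236493 to 13239296. Its level was low, at 2.73, 3.30 and 2.58 FPKM in WT-ISC and 0.0828, 0.177 and 0.131 in SPEN-ISC, or 79, 92 and 72 against 2, 4 and 6 counts. The fall in log2(FPKM + 0.5) was 2.53, with an SE of 0.45 (limma, adjusted p = 0.0352).

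*CG9377* lies 120605 bases from *CG5867* on the same chromosome arm, from 13359901 to 13361527, and its role is left out here as uncertain. It was at 1.69, 3.54 and 3.64 FPKM in WT-ISC and was listed at 0 in every SPEN-ISC library. With 48, 97 and 98 counts against 0, it was at least 80.9-fold lower against a floor of 3 counts over the SPEN-ISC group (limma, adjusted p = 0.0154). The 7 genes lay on 4 of the 5 large chromosome arms. There were 3 on 2L, 2 on X and 1 each on 2R and 3R, while 3L, with 1201 tested genes, had 0 at the adjusted threshold and 26 at an unadjusted p under 0.05.

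**Figure D3:**
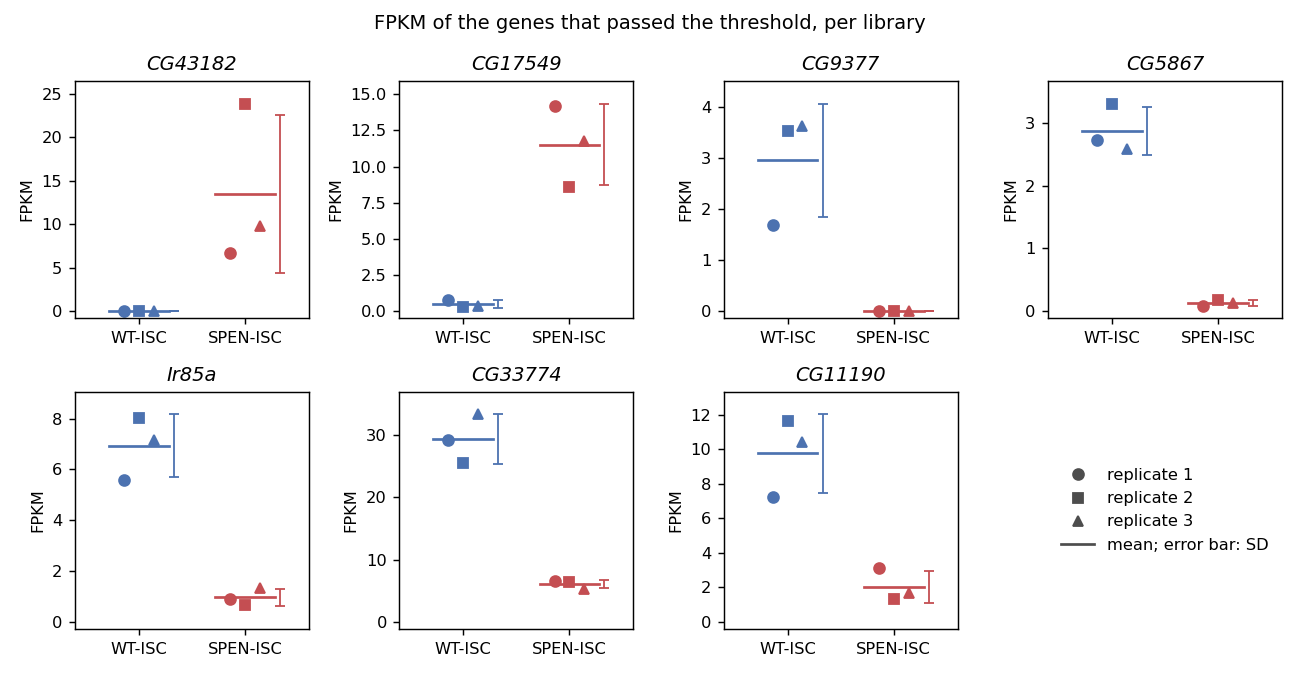
FPKM (y axis, from 0) of each of the 7 genes with an adjusted p under 0.05, by group. Markers are the libraries of replicates 1 to 3, horizontal lines the group means and bars the SD of 3 libraries. In no panel do the groups overlap, and CG43182 and CG9377 are listed at 0 in WT-ISC and in SPEN-ISC respectively.

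In EBs sorted from the same genotypes, the same genes had the following levels. *CG33774* was at 29.0 and 40.0 FPKM in WT-EB and 4.30, 6.67 and 7.99 in SPEN-EB. *CG17549* was at 0.360 and 0.111 FPKM in WT-EB and 9.69, 11.5 and 16 in SPEN-EB. *CG11190* was at 7.04 and 8.60 FPKM in WT-EB and 1.83, 1.51 and 2.76 in SPEN-EB. These genes thus had nearly the levels of ISCs, and *CG9377* was again listed at 0 in each SPEN-EB library, with 0.934 and 1.26 FPKM in WT-EB. *Ir85a* differed. It was listed at 0 in both WT-EB libraries and reached at most 0.0464 FPKM in SPEN-EB, so that it had no level from which to fall.

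Whether the effect of *spen* RNAi differed between ISCs and EBs was tested with an interaction term over all 11 libraries. In limma 0 of 7027 genes (0%) passed, and 119 (1.69%) had an unadjusted p under 0.05, while edgeR on summed counts also called 0, with 222 genes at an unadjusted p under 0.05. *Ir85a* had an unadjusted interaction p of 7.71e-05 and *CG14989* one of 0.000439 (limma), and both were low in every EB library. *CG14989* was at 24.6, 30.8 and 8.34 FPKM in WT-ISC and 3.63, 3.25 and 4.84 in SPEN-ISC. In the EB libraries it stayed between 0.0606 and 0.622 FPKM. The test rested on 2 WT-EB libraries, and a gene that missed the threshold is not shown to respond alike in both cell types.

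Among the genes with the smallest p after those 7, several rose or fell without overlap and missed the threshold in limma. Of the genes given in this and the next paragraph, DESeq2 called all but *CG9338* and *CG43055*, and edgeR called none. *CG9360*, a predicted dehydrogenase or reductase, was the most abundant of them. It was at 58.8, 34.6 and 43.3 FPKM in WT-ISC and 242, 417 and 479 in SPEN-ISC, with a log2 fold change of 2.78 (SE 0.54, adjusted p = 0.0622 in limma). The lowest SPEN-ISC library was far above the highest WT-ISC library. The neprilysin-like metallopeptidase *CG14526* (*Nepl21*) was at 0.253, 0.652 and 0.295 FPKM against 7.72, 1.79 and 5.99 (adjusted p = 0.0729). Its relative *CG9505* (*Nepl4*) had the opposite sign, with 5.33, 8.54 and 10.5 FPKM in WT-ISC and 1.21, 2.26 and 1.52 in SPEN-ISC (adjusted p = 0.0865).

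The other 6 of the 10 genes with the smallest p in the higher direction were *CG5348*, *Klp54D*, *CG42489*, *CG3635*, *CG9338* and *CG43055*, with adjusted p from 0.113 to 0.231. The kinesin *Klp54D* went from at most 0.0533 FPKM in WT-ISC to 2.36, 4.66 and 1.17 in SPEN-ISC, and the predicted lipase *CG3635* from at most 0.665 to 3.41, 3.05 and 4.56. *CG42489* was at 2.68, 2.58 and 2.50 FPKM in WT-ISC and 11.5, 23.3 and 12.2 in SPEN-ISC. For each of these 3 genes the SPEN-ISC libraries were all above the WT-ISC libraries. In the lower direction, the others were *CG12934*, *CR43855*, *CG14989* and *CG11241*, with adjusted p from 0.0622 to 0.105. *CG12934* went from 3.25, 2.45 and 2.01 FPKM in WT-ISC to 0.214 in SPEN-ISC replicate 2 and was listed at 0 in the other two. The non-coding gene *CR43855* went from 6.18, 3.26 and 4.58 FPKM to 0.289, 0.681 and 0.305, and the predicted aminotransferase *CG11241* from 10.4, 11.7 and 18.8 to 5.16, 2.06 and 5.07.

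A region on chromosome 2R around *unc-104*, a kinesin of synaptic vesicle transport, held several genes that were higher in SPEN-ISC. *unc-104* spans 12639004 to 12660002 on the minus strand. It was at 0.0862, 1.28 and 0.365 FPKM in WT-ISC and 3.72, 1.56 and 33.0 in SPEN-ISC (log2 fold change 2.68, SE 0.76). The adjusted p of *unc-104* was 0.593 in limma, 0.0012 in DESeq2 and 0.648 in edgeR. SPEN-ISC replicate 3, with the highest share of counts in long genes, was far above the other two. *CG5348*, a predicted cation transporter that lies within it on the other strand, was at 0.0216 and 0.0219 FPKM in 2 WT-ISC libraries and listed at 0 in replicate 3, and was at 1.14, 1.5 and 4.66 in SPEN-ISC (adjusted p = 0.113).

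Also within *unc-104*, on its own strand, *CG42392* was listed at 0 in every WT-ISC library and at 0.989, 0.896 and 3.85 FPKM in SPEN-ISC, with 0 against 81 counts. It was at least 27.0-fold higher against a floor of 3 counts over the WT-ISC group, and its FPKM were too low for the test. *Acp53C14c* ends 30 bases before *unc-104*. It was listed at 0 in WT-ISC replicate 1, was at 0.341 and 0.424 FPKM in the others and at 1.28, 1.72 and 2.37 in SPEN-ISC. For all 4 genes replicate 3 was the highest of the SPEN-ISC libraries, and reads of overlapping genes on the same strand cannot be told apart. *CG42392* and *Acp53C14c* were named after their values were seen. *CG5267* and *CG34189* also overlap *unc-104*, on the opposite strand, and their values are not given here.

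Of the transporters and channels, *dmGlut*, a glutamate transporter, was at 0.635, 1.36 and 0.828 FPKM in WT-ISC and 8.16, 1.43 and 16.8 in SPEN-ISC (log2 fold change 2.03, SE 0.55). Its adjusted p was 0.346 in limma, 0.00329 in DESeq2 and 0.386 in edgeR. SPEN-ISC replicate 2 lay just above the WT-ISC libraries and the others far above. The calcium channel gene *cac* was below the filter, at 0.0322, 0.179 and 0.0771 FPKM in WT-ISC and 0.00384, 0.00822 and 0.00405 in SPEN-ISC, or 87 against 4 counts in all (adjusted p = 0.00885 in DESeq2 and 0.184 in edgeR). Of 21 genes on a list of calcium, glutamate and amino acid transporters, 10 were tested. None passed the threshold. In the fit of all 6 libraries 4 had an unadjusted p under 0.05 and were higher (*CG5348*, *dmGlut*, *path* and *CG9864*), where 1.76% of all genes were. The study had named *CG5348*, *dmGlut* and *CG9864* from the same series, so the list is not independent of these data. All 10 had a positive log2 fold change, with a median of 0.78 against 0.05 over all genes. Without the 2 libraries at the ends of the long-gene axis 6 of 11 tested genes were above 0 and 5 below, with 4 and 1 at an unadjusted p under 0.05, and the median was 0.71.

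A pair of neighbouring genes on 2L of the neurotransmitter and amino acid transporter family was lower. *CG13794* was at 1.05, 1.68 and 1.24 FPKM in WT-ISC, was listed at 0 in 2 SPEN-ISC libraries and had 0.045 in replicate 3 (limma, adjusted p = 0.125). *CG13793* was at 0.399, 0.904 and 0.473 FPKM in WT-ISC and was listed at 0 in all SPEN-ISC libraries, below the filter of the test. Both were named after their values were seen.

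Among genes of cuticle and chitin, the cuticle protein gene *Cpr51A* was at 125, 76.2 and 74.1 FPKM in WT-ISC and 28.0, 22.3 and 22.8 in SPEN-ISC (log2 fold change -2.10, SE 0.48, adjusted p = 0.125 in limma). The groups were far apart, and *CG14989*, given above, was also lower (adjusted p = 0.0729). These were the 2 of 7 tested genes on the chitin list, out of 28 named, with an unadjusted p under 0.05, and none passed the threshold. Of all genes 1.6% were lower at that level, and the study had named both genes from the same libraries. The chitinase *Cht2* was below the filter, at 0.686, 0.468 and 0.511 FPKM against 0.0711, 0.107 and 0.120 (adjusted p = 0.0158 in DESeq2 and 0.401 in edgeR). *CG33258*, with a chitin-binding domain, was at 0.282, 0.714 and 4.50 FPKM against 0.134, 0.0959 and 0.0946, and WT-ISC replicate 3 was far above the others. The pigmentation gene *y*, on X from 250542 to 255278 and thus near *CG43182*, went the other way. It was listed at 0 in 2 WT-ISC libraries, had 0.0224 FPKM in replicate 3 and 0.318, 0.953 and 0.447 in SPEN-ISC (adjusted p = 0.0158 in DESeq2 and 0.267 in edgeR). The median of the 7 tested genes was 0.17. It was 0.27 without the 2 libraries, where 1 gene was higher and 2 were lower at an unadjusted p under 0.05, against 4.67% and 3.31% of all genes. In that fit *CG14989* passed as lower.

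Of the immune genes, *pirk*, an inhibitor of the Imd pathway that is itself a target of it, was at 5.64, 20.1 and 3.79 FPKM in WT-ISC and 32.5, 161 and 65.3 in SPEN-ISC. The log2 fold change was 2.89 (SE 0.74), and the adjusted p was 0.493 in limma and 0.00375 in DESeq2. In the EBs it was at 3.81 and 4.39 FPKM in WT-EB and 68.7, 62.4 and 55.0 in SPEN-EB. *AttC*, an antimicrobial peptide gene, was listed at 0 in 2 WT-ISC libraries, had 0.102 FPKM in replicate 2 and 0.864, 4.26 and 0.709 in SPEN-ISC (adjusted p = 0.00329 in DESeq2 and 0.352 in edgeR). The transglutaminase *Tg* had 0.0724, 0.103 and 0.131 FPKM against 0.856, 0.916 and 0.437 (DESeq2, adjusted p = 0.0532).

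*pirk* was the only one of 19 tested genes of the Imd list with an unadjusted p under 0.05, against 3.36% of all genes, and none passed the threshold. Receptors and the signalling core had the following values. *PGRP-LC*, the transmembrane receptor, had a log2 fold change of 0.35 (unadjusted p = 0.387), and the NF-kappaB factor *Rel* one of -0.05 (unadjusted p = 0.954), with 7.47, 133 and 97.3 FPKM in WT-ISC and 32.8, 39.8 and 113 in SPEN-ISC. The libraries of *Rel* overlapped across their whole range. *PGRP-LB*, an amidase that dampens the pathway, was at 16.8, 50.4 and 21.8 FPKM against 10.4, 37.2 and 17.0 (unadjusted p = 0.209). The median of the 19 was 0.18, and without the 2 libraries it was 0.13. In that fit 1 gene was higher and 1 lower at an unadjusted p under 0.05, against 4.67% and 3.31% of all genes.

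The E(spl) complex holds the direct targets of Notch, basic helix-loop-helix repressors and Bearded-type inhibitors. *E(spl)malpha-BFM* was at 378, 677 and 241 FPKM in WT-ISC and 993, 1247 and 2342 in SPEN-ISC, with a log2 fold change of 1.61 (SE 0.52, unadjusted p = 0.00658, adjusted p = 0.736 in limma). *E(spl)mbeta-HLH* was at 800.3, 790.03 and 803 FPKM against 1831, 2178 and 2221, and *E(spl)m3-HLH* at 162, 222 and 116 against 333, 475 and 528. For these genes and *Kaz-m1* all SPEN-ISC libraries were above all WT-ISC libraries. Of the 9 tested genes of 16 named, these 4 had an unadjusted p under 0.05, all higher, where 1.76% of all genes were, and none passed the threshold. Of the 9, 8 had a positive log2 fold change, with a median of 0.75. Without the 2 libraries at the ends of the long-gene axis 8 of 9 were still above 0, the median was 1.25, 5 had an unadjusted p under 0.05, and *E(spl)malpha-BFM* passed. The summed level of all 16 was 1371, 1743 and 1183 FPKM in WT-ISC and 3223, 3977 and 5164 in SPEN-ISC (exact permutation p = 0.1, the smallest possible).

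*E(spl)m8-HLH* was the 1 tested member below 0, and its groups overlapped like those of *E(spl)m7-HLH*. *E(spl)m8-HLH* was at 0.819, 4.15 and 2.20 FPKM in WT-ISC and 1.69, 2.30 and 1.17 in SPEN-ISC (log2 fold change -0.36, unadjusted p = 0.479), and *E(spl)m7-HLH* at 1.85, 12.8 and 2.46 against 5.28, 6.50 and 6.64 (0.36, unadjusted p = 0.479). Upstream of these targets, 16 of 25 core genes of the Notch pathway were tested and 0 had an unadjusted p under 0.05. The ligand gene *Dl* was at 0.172, 1.18 and 0.554 FPKM in WT-ISC and 1.05, 0.579 and 7.43 in SPEN-ISC (log2 fold change 1.03, SE 0.58, unadjusted p = 0.0929). Its libraries overlapped, and SPEN-ISC replicate 3 stood far above the rest. The receptor *N* was below the filter, at 0.160, 2.57 and 0.6 FPKM against 0.729, 0.390 and 4.37. Of the subunits of gamma-secretase, which frees the intracellular part of Notch, *Psn* had a log2 fold change of 0.18 and *aph-1* one of 0.04. The subunit *pen-2* had one of -0.68, with overlapping groups (unadjusted p = 0.115 in limma). Of the 16 genes 12 were above 0, with a median of 0.27, and without those 2 libraries 4 were, with a median of -0.13 and 1 lower at an unadjusted p under 0.05.

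The Spen family member *nito*, a subunit of the m6A writer complex, was at 2.79, 7.38 and 2.53 FPKM in WT-ISC and 2.21, 0.714 and 3.61 in SPEN-ISC. Its groups overlapped in these FPKM, which are not scaled. The log2 fold change after scaling was -1.07 (SE 0.47, unadjusted p = 0.037 in limma). The catalytic subunit *Ime4* was at 1.75, 3.91 and 4.53 FPKM against 7.63, 2.65 and 6.33 (0.39, unadjusted p = 0.37), and the nuclear reader *YT521-B* had a log2 fold change of 0.05. Of the 10 genes of this list, *spen* and *nito* had an unadjusted p under 0.05, against 3.36% of all genes, and none passed the threshold. The median was 0.07, and without the 2 libraries it was 0.14, again with 1 higher and 1 lower. Among genes of the piRNA pathway, which silences transposons, *tej* was below the filter at 0.0700, 0.189 and 0.0705 FPKM in WT-ISC and 1.22, 0.405 and 1.53 in SPEN-ISC (adjusted p = 0.00885 in DESeq2 and 0.299 in edgeR). *piwi* was at 0.148, 0.494 and 0.134 FPKM against 2.25, 0.904 and 2.81 (DESeq2, adjusted p = 0.0996), and of the 5 genes of the list that were tested 0 had an unadjusted p under 0.05 with or without the 2 libraries (median 0.43 and 0.33).

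The medians of several signalling and progenitor lists turned from positive to negative without the 2 libraries at the ends of the long-gene axis. In the JAK-STAT list, 1 of 7 tested genes had an unadjusted p under 0.05, against 3.36% of all genes. This was the feedback inhibitor *Socs36E*, at 12.6, 25.8 and 13.5 FPKM in WT-ISC and 52.2, 23.1 and 61.9 in SPEN-ISC, with groups that overlapped before scaling (log2 fold change 1.10, SE 0.39, adjusted p = 0.948 in limma). The EGFR list (9 tested) and the insulin and TOR list (14 tested) had 0, with medians of 0.07 and 0.05. Without the 2 libraries the medians of these lists were -0.28 for JAK-STAT, -0.11 for EGFR and -0.54 for insulin and TOR, where 13 of 14 genes were below 0. Of 12 tested progenitor and fate transcription factors 0 had an unadjusted p under 0.05 and 8 were above 0 (median 0.21). All 12 were below 0 without the 2 libraries (median -0.47), 2 had an unadjusted p under 0.05, and *esg* passed as lower. In that fit 7.98% of all genes had an unadjusted p under 0.05. Of 6 tested progenitor markers 0 had an unadjusted p under 0.05 (median 0.47), and without the 2 libraries 5 of 6 were below 0 (median -0.86), 3 had an unadjusted p under 0.05, and *esg*, which is on both lists, passed. No direction of these lists therefore holds in both fits. *Sox21a*, which acts in progenitors, was at 2.97, 32.8 and 6.51 FPKM in WT-ISC and 14.2, 6.59 and 55.6 in SPEN-ISC, and its spread within each group was wider than the difference between them.

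Mitotic genes had 1 of 31 at an unadjusted p under 0.05 (median 0.34), and replication genes 0 of 21 (median 0.40), against 3.36% of all genes. The medians were 0.03 and 0.20 without the 2 libraries. There 1 mitotic gene was higher and 1 lower and 1 replication gene higher at an unadjusted p under 0.05, against 7.98% of all genes. In the fit of all 6 libraries the 1 was *neb*, a kinesin of cytokinesis, which was lower. It was at 7.04, 15.1 and 14.1 FPKM in WT-ISC and 6.45, 1.75 and 3.68 in SPEN-ISC (log2 fold change -1.80, SE 0.41, adjusted p = 0.12 in limma). *CycA* was at 2.30, 12 and 5.59 FPKM against 15.9, 6.41 and 16.7 (0.85, unadjusted p = 0.0556) and *polo* at 1.6, 12.8 and 5.01 against 15.2, 3.94 and 16.7 (0.78, unadjusted p = 0.132). The groups of both overlapped. *Aats-ser*, which charges mitochondrial serine tRNA, was at 6.71, 6.50 and 8.75 FPKM in WT-ISC and 2.45, 1.57 and 1.70 in SPEN-ISC, without overlap (log2 fold change -1.92, SE 0.43, adjusted p = 0.12 in limma).

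Ribosomal protein genes had a median of -0.40 over 85 cytoplasmic and -0.29 over 72 mitochondrial members, with 0 at an unadjusted p under 0.05 in either list. These medians are not a stable direction. Without scaling they were -0.16 and -0.05, and without the 2 libraries at the ends of the long-gene axis they were 0.18 and 0.29. Heat shock genes, read against the shared shift to 29°C, had a median of 0.56 over 19 tested genes with 0 at an unadjusted p under 0.05. When the 2 libraries were left out the median was 0.74 and 8 of the 19 had an unadjusted p under 0.05, all higher, where 4.67% of all genes were, and 0 passed the adjusted threshold. *Hsp68* was at 415, 1045 and 200.04 FPKM in WT-ISC and 1404, 466 and 1592 in SPEN-ISC, with overlapping groups.

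Markers of other cell types were present in both groups at levels that varied by library. Of the enteroendocrine markers 13 of 17 matched were tested, 0 had an unadjusted p under 0.05, and the median was -0.75. The same count without the 2 libraries was 0, with a median of -0.29. Their summed level was 2660, 2071 and 1515 FPKM in WT-ISC and 239, 3102 and 477 in SPEN-ISC (exact permutation p = 0.4). *npf*, a gut hormone gene, was at 2063, 1460 and 1246 FPKM against 77.9, 2553 and 199. SPEN-ISC replicate 2 was thus above every WT-ISC library and the other two far below. The defining factor *pros* was at 0.284 FPKM or less in all 6 libraries.

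Of the enterocyte markers, 25 of 28 were tested, 1 had an unadjusted p under 0.05 (*gammaTry*, a trypsin, higher, against 1.76% of all genes), and the median was 0.06. Their summed level was 3516, 7861 and 5311 FPKM in WT-ISC and 13152, 8683 and 4287 in SPEN-ISC. The groups overlapped, and without the 2 libraries at the ends of the long-gene axis 6 of the 25 passed higher and 1 lower, where 0.916% and 0.357% of all genes did. The summed level of 18 visceral muscle markers was 4.34 to 23.2 FPKM, that of 15 fat body and haemocyte markers at most 8.44 and that of 7 Malpighian tubule markers under 1 in each library. The 1 tested gene of the fat body list was *Lsp1gamma*, a larval storage protein gene, at 0.181, 0.753 and 0.474 FPKM in WT-ISC and 2.33, 1.39 and 3.32 in SPEN-ISC. It was higher without overlap (log2 fold change 1.42, SE 0.44, adjusted p = 0.639 in limma and 0.0277 in DESeq2), while the summed level of the list overlapped between the groups. The part of other cell types in single results was not tested. In sorted pools, a different share of a cell type and a different level per cell cannot be told apart.

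**Figure D4:**
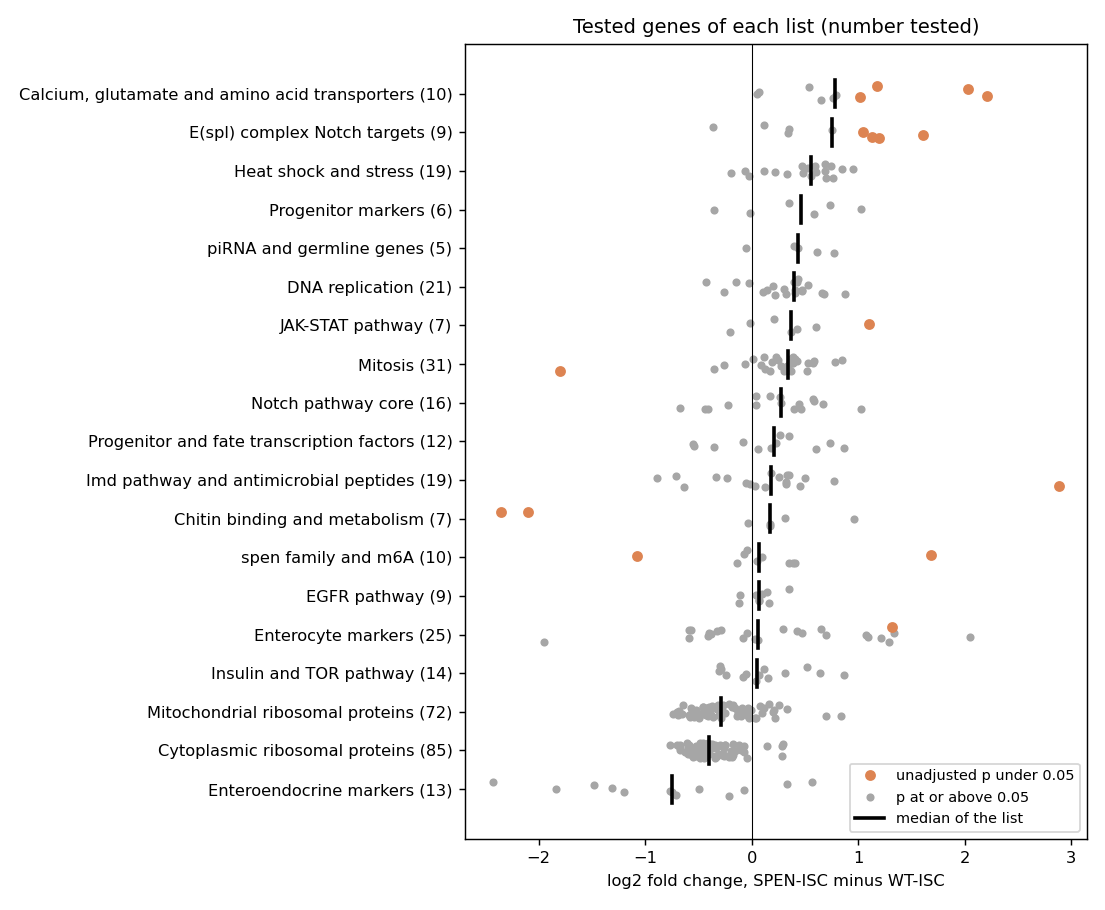
Log2 fold change (x axis) of every tested gene of the lists with at least 5 tested genes (y axis, number tested in brackets). Orange points have an unadjusted p under 0.05 and black bars are medians. The E(spl) and transporter lists each have 4 orange points, all above 0, and the ribosomal protein lists have 0.

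Exon usage, the share of the counts of a gene that falls in a bin, passed the threshold of the main test in a handful of genes. Of 28396 bins of 6489 genes, 10 (0.0352%) passed an adjusted p under 0.05 in limma on the log2 ratio of a bin to the rest of its gene. Of these, 3 (0.0106%) were used more and 7 (0.0247%) less in SPEN-ISC, and an unadjusted p under 0.05 was reached by 963 (3.39%). The 10 bins lay in 7 genes. By position, an unadjusted p under 0.05 was reached by 4.51% of 4661 first bins, 2.80% of 18048 internal bins and 4.36% of 5687 last bins. The number of bins depended on the model. limma's diffSplice called only *spen* E014, and edgeR's diffSpliceDGE called 2 bins, both among the 10. A fit with the share of counts in long genes as a covariate called more than 10, as given below. DEXSeq, the exon test of the study, was not run here, and the study reported more transcripts with changed usage in ISCs. Without SPEN-ISC replicate 1 the count was 1, and without the 2 libraries at the ends of the long-gene axis it was 120 and included all 10.

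*CG33774*, the oligosaccharyltransferase subunit with lower expression, had almost no counts in its first exon in SPEN-ISC. The gene has 1 annotated transcript of 3 bins on the minus strand. E003, the first in the transcript, covers 48 bases from 5287762 to 5287809 on 2R. It had 432, 311 and 377 counts in WT-ISC and 2, 2 and 0 in SPEN-ISC, or 34.4, 32.3 and 32.8% of the gene against 0.387, 0.714 and 0%. The log2 ratio to the rest of the gene fell by 6.75 (SE 0.40, adjusted p = 0.00347 in limma).

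The last bin of *CG33774*, E001 (5287258 to 5287373), had 139, 115 and 145 counts in WT-ISC and 204, 99 and 90 in SPEN-ISC. The counts of the last exon thus overlapped between the groups while those of the other exons were lower. As a share of the gene E001 went from 11.1, 12 and 12.6% to 39.5, 35.4 and 37.2% (log2 ratio 2.16, SE 0.14, adjusted p = 0.00306 in limma). The middle bin E002 had 686, 536 and 628 counts against 311, 179 and 152 (adjusted p = 0.714). In EBs, E003 had 366 and 543 counts in WT-EB and 4, 3 and 6 in SPEN-EB.

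*neb* has 1 annotated transcript of 2 exon bins on 2L, and the pair shifted. E002 (20087647 to 20089698), with the end of the coding sequence and the 3′ UTR, had 528, 1149 and 1064 counts in WT-ISC and 388, 108 and 220 in SPEN-ISC. E001 (20075757 to 20077296), with the 5′ UTR and the start of the coding sequence, had 37, 56 and 66 counts in WT-ISC and 176, 39 and 99 in SPEN-ISC. The share of E001 rose from 6.55, 4.65 and 5.84% to 31.2, 26.5 and 31.0%, a log2 ratio of 2.89 (SE 0.21, adjusted p = 0.00398 in limma). With 2 bins, the fall of E002 is the same change seen from the other side (adjusted p = 0.00278), so both calls are 1 change. The lower level of *neb* given above lay in E002. *neb* overlaps *CG10747* and *fok* on the opposite strand.

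*RFeSP* encodes the Rieske iron-sulfur protein of respiratory complex III and lies on the minus strand of 2L. Its adjacent bins E003 (51 bases, 1612989 to 1613039) and E004 (4 bases) lie between the bins E002 and E005 with no gap, and the files assign them to 1 and 2 of the 3 transcripts. E003 had 85, 63 and 61 counts in WT-ISC and 1, 3 and 0 in SPEN-ISC, with an adjusted p of 0.0356 in limma. E004 had 54, 41 and 50 against 1, 3 and 0 (adjusted p = 0.0452). A read across their border overlaps both bins, so they are not independent. E003 held 0.907 to 0.993% of the gene in WT-ISC, and the bins shared by all transcripts, E002, E005 and E006, had unadjusted p from 0.117 to 0.447. In EBs, E003 had 70 and 86 counts in WT-EB and 1, 1 and 1 in SPEN-EB.

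*Rcp* (*Polr3I*), a subunit of RNA polymerase III, gained counts in its first bin E001 (28 bases, X, 16778614 to 16778641). There were 0, 0 and 1 counts in WT-ISC and 33, 18 and 56 in SPEN-ISC, up to 8.27% of the gene (log2 ratio 5.28, SE 0.57, adjusted p = 0.0356 in limma). Its neighbour E002 had 8, 17 and 11 counts against 2, 3 and 3, too few for the test. The EB libraries did not divide by genotype, with 0 and 30 counts in WT-EB and 27, 8 and 1 in SPEN-EB. *CG9894* (*Bacc*) used E002, a stretch of 3 bases at the end of its first exon, less. Its counts were 237, 260 and 321 in WT-ISC and 114, 59 and 237 in SPEN-ISC, and its share went from 5.35, 5.63 and 6.55% to 1.96, 1.35 and 2.15% (adjusted p = 0.0356).

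*CG18853* used E003, one of its 4 bins (390 bases, 2R, 3717097 to 3717486), less. Its share was 31.6, 31.1 and 34.3% in WT-ISC and 15.8, 14.4 and 16.6% in SPEN-ISC (log2 ratio -1.37, SE 0.12, adjusted p = 0.0111 in limma). The counts of E003 itself overlapped, at 196, 176 and 198 against 244, 129 and 167. Those of every other bin were higher in SPEN-ISC without overlap. E001 had 204, 194 and 175 against 612, 376 and 429, and E002 had 128, 122 and 130 against 337, 178 and 201. E004 had 92, 74 and 75 against 355, 215 and 211. The lower share of E003 thus went with higher counts in the rest of the gene. *CG18853* overlaps *CG30382* on the opposite strand.

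*CG42684* (*raskol*), a Ras GTPase-activating protein, used E008 less. This bin of 2605 bases (X, 17632446 to 17635050) is the first exon of 1 of its 5 annotated transcripts, with the 5′ UTR and the start of the coding sequence. Its share was 55.0, 51.4 and 49.6% in WT-ISC and 28.9, 27.4 and 32.0% in SPEN-ISC (log2 ratio -1.31, SE 0.13, adjusted p = 0.0245 in limma). In EBs it was 60.3 and 63% in WT-EB and 28.2, 30.7 and 22.6% in SPEN-EB.

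**Figure D5:**
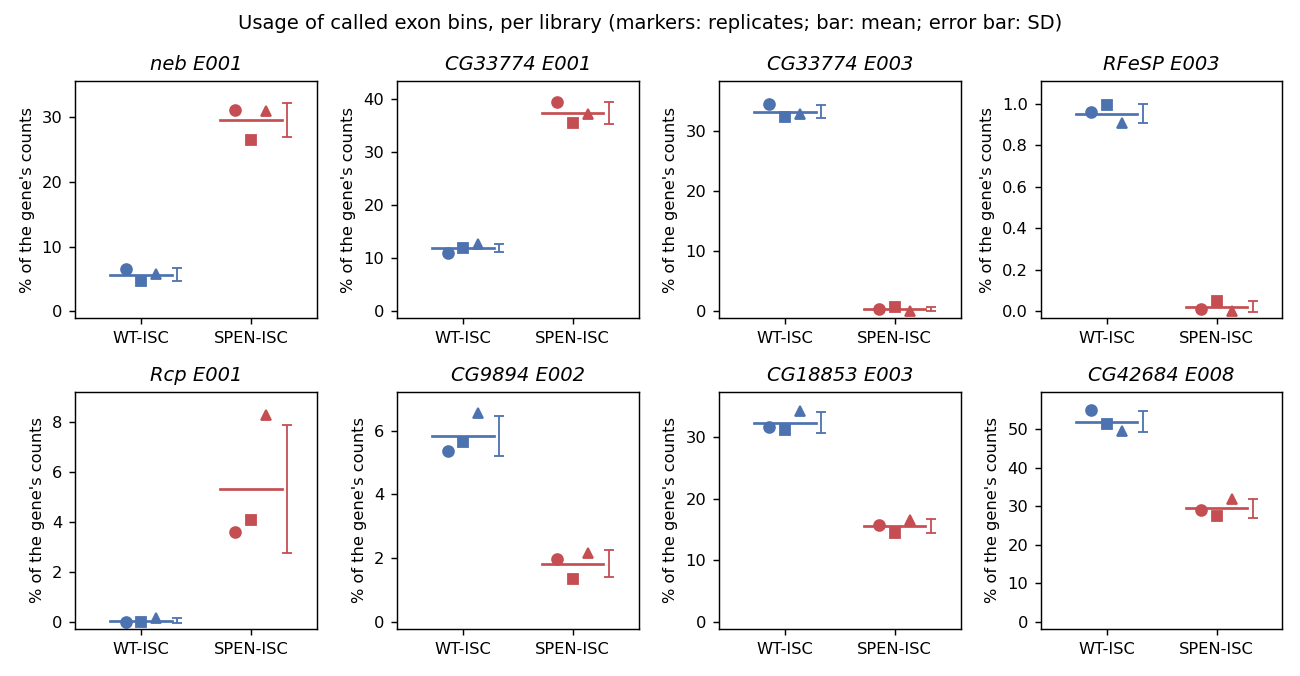
Share of a gene's counts in the bin (y axis, from 0) for 8 of the 10 bins with an adjusted p under 0.05, by group. Markers are libraries, horizontal lines group means and bars the SD of 3 libraries. CG33774 E003 falls from 32.3 to 34.4% to less than 1%, and neb E001 rises from at most 6.55% to at least 26.5%.

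The bins next in order did not pass. *CG30283* E003 and *CG42336* E007 had adjusted p of 0.0631 and 0.076 in limma. *piwi* E001, the last exon, took 81.5, 84.7 and 77.8% of the gene in WT-ISC and 51.4, 46.9 and 49.3% in SPEN-ISC (adjusted p = 0.0761). Its counts were 22, 72 and 21 against 110, 45 and 141. The 7 bins upstream of it had at most 5 counts each in any WT-ISC library. The 585 bases of E007, for example, had 1, 3 and 1 counts in WT-ISC and 31, 14 and 33 in SPEN-ISC.

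For each gene of this paragraph the bin with the smallest p of its gene was chosen. Separation of the groups in these bins is therefore not independent of that choice. Of the ribosomal protein genes, *RpS21* had a higher share of E004 in SPEN-ISC, which did not pass. These 62 bases on 2L, from 2856569 to 2856630, hold the end of the coding sequence and part of the 3′ UTR of 1 of 3 transcripts. The bin had 868, 609 and 770 counts in WT-ISC and 1238, 1141 and 743 in SPEN-ISC, or 0.322, 0.315 and 0.368% of the gene against 0.702, 0.620 and 0.531% (log2 ratio 0.88, SE 0.11, adjusted p = 0.0761). *RpL19* E004 and *RpL17* E003 also lay higher in every SPEN-ISC library, at adjusted p of 0.825 and 0.658. All 3 bins held under 1% of their gene. *Ubi-p63E* E003, a 5′ UTR bin, went from 0.505, 1.09 and 0.548% of its gene to 0.285, 0.204 and 0.252% (adjusted p = 0.515).

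*nito* E004, chosen as the bin of *nito* with the smallest p, took 89.1, 60.8 and 58.8% of its counts in WT-ISC and 33.1, 38.5 and 30.5% in SPEN-ISC. The groups did not overlap (log2 ratio -2.30, SE 0.71, unadjusted p = 0.0192), and the bin did not pass over all bins. The bin of *Dl* with the smallest p, E001, took 50, 23.3 and 25.4% in WT-ISC and 23.7, 28.2 and 12.1% in SPEN-ISC, with overlapping groups (unadjusted p = 0.0996). The bin held 12 to 117 counts per library.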

How the data were processed

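The authors isolated RNA from sorted cells, aligned paired reads of a first-strand library type with TopHat2 2.0.6 to the fly genome, and deposited gene levels as FPKM and whole-number counts of reads per exon bin (BDGP5). Gene names and roles of later annotations were taken from RefSeq and FlyBase tables by identifier. FPKM are printed as deposited, and overlap of the groups in FPKM was judged on these values, before scaling. For the gene test, libraries were brought to a common scale by the trimmed mean of M-values (30% of log ratios and 5% of levels trimmed), log2(FPKM + 0.5) was fitted with limma 3.58.1 (trend, robust) in R 4.3.3, and Benjamini-Hochberg adjustment was applied to genes with at least 1 FPKM in 3 libraries. Fold changes are on this scale and understate those of low genes. Exon bins with at least 10 counts were fitted with limma on the log2 ratio of a bin to the rest of its gene (offset 0.5, weights by depth). The fits used the 6 ISC libraries without a replicate block, and the interaction used all 11. edgeR 4.0.16, DESeq2 1.42.0 and voom on counts summed over bins were alternatives. The scripts were tested on simulated data.

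The genes named are those called, the 10 with the smallest p in each direction, genes named by the study for ISCs, and up to 4 members of each list by p or abundance. Others are said to have been named after their values were seen. The gene lists and tests were chosen with earlier results of these data known. The labels call the samples biological replicates without naming separate flies, so p-values measure only the spread between these samples. Permutation tests are exact and two-sided, and with 3 against 3 libraries p cannot go below 0.1. Floors cover counting error only. The deposited tables also held 16 columns of single samples and 8 of means that were not used here, and the authors' own fold changes and p-values, which were not used either.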

Additional observations from a re-analysis of the deposited data

How the results depend on the processing

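The 7 genes called depended on the model. The count stayed at 7 with a pseudocount of 0.1 or 1 and with median-of-ratios scaling, and was 7 with a filter of 5 FPKM, of which 5 were the same genes. It was 0 without a filter on low FPKM (limma, 424 at an unadjusted p under 0.05), 0 with edgeR (278), 2 without scaling, 10 with voom, 54 with DESeq2 and 19 with all 11 libraries in the fit. With the share of counts in long genes as a covariate it was 16, and without the 2 libraries at the ends of that axis 82. Leaving out 1 library gave 1 (without SPEN-ISC replicate 1) to 40 (without SPEN-ISC replicate 3).

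Of the 10 exon bins, 8 were called with at least 30 counts, 12 with at least 5 and 10 with an offset of 2. The count was 6 without weights, 1 with diffSplice (90 at an unadjusted p under 0.05), 2 with diffSpliceDGE, 39 with the covariate and 120 without the 2 libraries. Leaving out 1 library gave 1 (without SPEN-ISC replicate 1) to 14 (without SPEN-ISC replicate 3). The covariate and the removal of the 2 libraries were chosen after seeing the data. For the interaction the count was 0 under every alternative run. No result changed its sign beyond the threshold under any alternative. The causes of these shifts were not tested.

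With the replicate number as a block the counts were 36 genes, 1 exon bin and 0 interactions. The deviations of libraries with the same number had correlations of 0.22, -0.40 and 0.13, and 1 of the 3 matched its own number best. These values cannot show whether libraries with the same number share more than that number.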
